A study of Mus musculus with 6 samples.

Results

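The genes described here are the digestive enzymes and the transcription factors of the exocrine (acinar) pancreas, as counted in RNA-seq libraries of isolated mouse islets. The set was taken by gene symbol and holds 37 of the 19342 genes in the deposited count table. It comprises 24 digestive enzymes or their precursors, 6 granule and other secreted proteins, 2 protease inhibitors, 4 transcription factors and Gatm, a creatine synthesis enzyme. They were chosen by symbol and role, not by a measured value. The 6 libraries came from islets of mice aged 3 months: 3 FXR+/+ (wild type) libraries and 3 FXR-/- libraries, in which the nuclear bile acid receptor FXR, encoded by Nr1h4, was knocked out in mice on a C57Bl/6 background. Each genotype held 1 female library (female 1) and 2 male libraries (male 1 and male 2), and no group received a treatment. Islets were freed from the pancreas by collagenase digestion; how many mice were pooled for each library is not given in the sources used here, so p-values measure the spread between libraries.

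Acinar cells make up most of the pancreas and secrete digestive enzymes, mostly as inactive zymogens, into the ducts that lead to the gut. Their program is driven by the PTF1 complex, in which the basic helix-loop-helix factor PTF1A binds with RBPJL at paired CACCTG-like and TTTCCC-like sites. BHLHA15 (MIST1) shapes the secretory apparatus, and NR5A2 acts with PTF1 on enzyme genes. Islets are endocrine, and insulin genes rather than enzyme genes define their β-cells. Ins1 and Ins2 together took 17.5% to 23.9% of the gene counts of these libraries, and all 20 endocrine marker genes on a list fixed for the work were counted, which matched the islet label. Gene counts per library ranged from 20629306 to 30139235. Nr1h4, the deleted gene, was represented by 333, 274 and 386 counts in female 1, male 1 and male 2 of FXR+/+, and by 140, 145 and 138 in FXR-/- islets, an order of libraries that is kept for all values given below.

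The promoters of 6 members are shown first, because they belong to genes whose levels either tracked the rest of the set closely (Ctrb1, Cela1, Cel, Prss2) or departed from it (Prss3, Amy2b). They run from 250 bases before to 50 bases after the gene start and are RefSeq sequences of build GRCm38.p6, written 5′ to 3′ on the strand of the gene. Capitals mark the motifs of the PTF1 complex, CACCTG and, as a separate motif, TTTCCC, together with the TATA box motif TATAAA, on either strand.
Ctrb1, chr8:111690961-111691260, minus strand: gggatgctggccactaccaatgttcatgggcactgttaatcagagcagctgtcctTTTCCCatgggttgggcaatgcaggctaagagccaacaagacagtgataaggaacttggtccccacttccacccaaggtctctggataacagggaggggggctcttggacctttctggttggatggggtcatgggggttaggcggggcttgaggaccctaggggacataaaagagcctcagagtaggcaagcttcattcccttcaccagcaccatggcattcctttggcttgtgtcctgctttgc
Cela1, chr15:100687871-100688170, minus strand: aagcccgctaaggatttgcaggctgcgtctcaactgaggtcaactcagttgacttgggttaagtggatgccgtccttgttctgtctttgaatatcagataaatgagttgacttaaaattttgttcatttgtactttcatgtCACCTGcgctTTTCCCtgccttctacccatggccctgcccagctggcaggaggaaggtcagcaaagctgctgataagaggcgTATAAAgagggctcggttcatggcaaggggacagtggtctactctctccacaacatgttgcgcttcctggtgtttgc
Cel, chr2:28563354-28563653, minus strand: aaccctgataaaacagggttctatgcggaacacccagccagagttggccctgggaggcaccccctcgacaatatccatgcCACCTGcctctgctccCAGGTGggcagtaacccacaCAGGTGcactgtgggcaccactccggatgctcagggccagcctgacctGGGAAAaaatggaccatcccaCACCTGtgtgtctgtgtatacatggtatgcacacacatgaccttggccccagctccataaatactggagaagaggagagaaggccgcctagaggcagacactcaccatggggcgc
Prss2, chr6:41521526-41521825, plus strand: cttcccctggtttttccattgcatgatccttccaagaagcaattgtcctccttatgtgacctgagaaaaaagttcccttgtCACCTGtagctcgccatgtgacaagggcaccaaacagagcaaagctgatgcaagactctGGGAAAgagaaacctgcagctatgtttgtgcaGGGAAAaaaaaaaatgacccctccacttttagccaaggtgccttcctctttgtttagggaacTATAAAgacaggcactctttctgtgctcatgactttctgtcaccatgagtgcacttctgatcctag
Prss3, chr6:41377564-41377863, minus strand: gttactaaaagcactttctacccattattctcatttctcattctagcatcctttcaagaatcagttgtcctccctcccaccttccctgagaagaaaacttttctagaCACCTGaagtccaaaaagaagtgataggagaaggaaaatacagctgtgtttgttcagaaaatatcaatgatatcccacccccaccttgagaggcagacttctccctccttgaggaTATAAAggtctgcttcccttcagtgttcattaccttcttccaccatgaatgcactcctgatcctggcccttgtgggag
Amy2b, chr3:113156678-113156977, minus strand: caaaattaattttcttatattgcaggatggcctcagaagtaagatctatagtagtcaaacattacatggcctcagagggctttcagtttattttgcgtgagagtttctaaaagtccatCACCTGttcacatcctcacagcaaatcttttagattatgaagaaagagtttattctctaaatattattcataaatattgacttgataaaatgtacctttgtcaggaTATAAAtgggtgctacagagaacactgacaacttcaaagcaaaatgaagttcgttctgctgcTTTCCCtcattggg

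The Cel promoter held 4 CACCTG matches and 1 TTTCCC match. In Cela1, CACCTG began at position -109, TTTCCC at -99 and TATAAA at -27, counted from the gene start. Ctrb1, the most abundant member, had no CACCTG and no TATAAA in its window and 1 TTTCCC at -195. Prss3 and Amy2b each held 1 CACCTG and 1 TATAAA, the latter at -28 and -26. Promoters were given for 30 of the 37 members. The table held none for Spink1, Try10, Clps, Zg16, Ctrc, Try5 and Dmbt1. CACCTG occurred in 19 of the 30 genes (63.3%) and in 20.2% of all 32851 promoters of the same length, TTTCCC in 10 (33.3%) against 25.2%, and TATAAA in 12 (40.0%) against 13.6%. A gene was counted if any of its promoters held the motif, whereas the background is per promoter. The 30 genes had 32 promoters, of which 19 held CACCTG, 11 TTTCCC and 12 TATAAA. Some, such as those of Cela3a and Cela3b, are near copies and not separate cases. CACCTG and TTTCCC stood together in 8 genes (26.7%) and in 4.86% of all promoters. The general E-box CANNTG, of which CACCTG is one form, was found in 83.3% of the genes and 72.3% of all promoters. The NR5A2 motif AAGGTCA occurred in 13.3% against 4.72%, the nuclear receptor motif AGGTCA, which it contains, in 30.0% against 16.3%, and the GATA site AGATAA in 33.3% against 11.2%. These matches are letters in a window and were not tested as binding sites.

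The 37 genes took a sizeable share of every islet library (the plot of shares by role). In FXR+/+ islets the summed share was 6.07% of the gene counts in female 1, 14.9% in male 1 and 5.36% in male 2. In FXR-/- islets it was 7.80%, 15.5% and 9.71%. The male 1 libraries of both genotypes were the highest, male 2 of FXR+/+ was the lowest, and the groups overlapped. Binomial (Wilson) 95% intervals were at most 0.0154 percentage points to either side, for counting error only, so nearly all of the spread lay between libraries. The mean was 8.77% ± 5.31 in FXR+/+ and 11.0% ± 4.02 in FXR-/- islets (SD, n = 3 each). Every FXR-/- library was above the FXR+/+ library of the same sex and number, by 1.28-fold in female 1, 1.04-fold in male 1 and 1.81-fold in male 2. The labels do not say that libraries of one number belong together, and the pairing of the males was inferred from these data. It matters here, since FXR-/- male 2 (9.71%) was below FXR+/+ male 1 (14.9%). The difference on the log2 scale was 0.43 and did not pass a two-sided exact permutation test over the 20 relabellings (p = 0.5), where the smallest possible p was 0.1. A paired sign-flip test over the 3 pairs gave an exact p of 0.25, the smallest it can give. The difference turned on single libraries. It was 0.89 without FXR+/+ male 1, 0.65 without FXR-/- female 1, 0.24 without FXR+/+ female 1, and 0.15 without either FXR+/+ male 2 or FXR-/- male 1. In tissue RNA such as this, fewer cells of a type and less RNA per cell cannot be told apart.

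**Figure D1:**
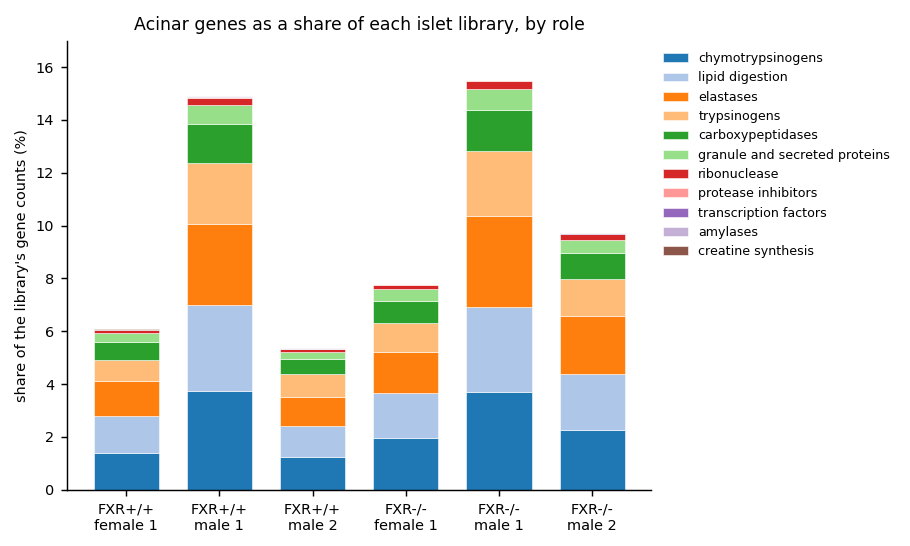
Stacked bars give the percentage of each library's gene counts taken by the 37 acinar genes, split by role; bars are single libraries. The male 1 libraries reached 14.9% and 15.5%, and the other 4 lay between 5.36% and 9.71%.

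Markers of other pancreatic cells were summed in the same libraries, as counts per 1000000 gene counts (CPM). Other acinar genes, of which 33 of 43 were counted, summed to 6061, 11777 and 5597 CPM in FXR+/+ and to 6776, 12638 and 8494 CPM in FXR-/- islets. They were high in the same male 1 libraries as the members. The 6 REG family genes, of secreted lectins that acinar cells also make, summed to 1662, 3473 and 1272 CPM and to 2426, 3125 and 2210 CPM. The 17 ductal markers moved little, from 759 to 859 CPM in FXR+/+ and from 773 to 871 CPM in FXR-/- islets. The 7 endothelial markers did not overlap, at 525 to 587 CPM in FXR+/+ and 622 to 889 CPM in FXR-/- islets. Of the 9 lists summed this was the only one without overlap, and it was not tested. Among single genes 15.4% of those tested did not overlap (CPM after TMM scaling, described below). Stellate and fibroblast markers (9 genes) summed to 164 to 265 CPM and 233 to 274 CPM, and macrophage markers (8 genes) to 117 to 146 CPM and 140 to 163 CPM. The 9 B and T cell markers, of which 2 were at 0 in at least one library, summed to at most 58.9 CPM. Endocrine markers ranged from 244437 to 294665 CPM and from 257450 to 311220 CPM. The part of these cell types in the members' levels was not tested.

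No member was called between the genotypes. The edgeR quasi-likelihood test with sex in the model, Benjamini-Hochberg adjusted over the 14619 genes tested, called 0 of the 37 members and 0 genes in all (0% of those tested). The lowest adjusted p was 0.129 among all genes and 0.388 among the members. Nr1h4, the deleted gene, was itself not called (log2 fold change -1.07 ± 0.16, SE, adjusted p = 0.217, edgeR). The absence of a call therefore does not show that a gene was unchanged. At an unadjusted p under 0.05 there were 3 members, Cela3a, Prss1 and Prss3, beside 1511 genes (10.3% of all tested). DESeq2 called 177 genes (1.21%) and none of the members, whose lowest adjusted p was 0.216. With the pair of libraries in the model in place of sex, edgeR called 23 genes (0.157%). Nr1h4 was among them (adjusted p = 0.0441), and again no member was (lowest adjusted p = 0.0759, Prss3). In that fit 18 members were at an unadjusted p under 0.05, against 16.1% of all genes. TMM scaling applies a single factor to each library and does not remove differences in the acinar share. In CPM after TMM scaling, the genotypes overlapped for all 37 members, whereas 2250 of the 14619 genes (15.4%) did not overlap.

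The fitted differences nevertheless had a common sign for most members. Of the 37 estimates, 33 were above 0 and 4 below, and their median was 0.44 on the log2 scale, beside a median of 0.0084 over all genes tested. They ranged from -0.14 (Gatm) to 1.69 (Cela3a), and 29 of them lay between 0.2 and 0.6. Within the pairs, 29 members were higher in the FXR-/- library of all 3 pairs, which held for 20.4% of all genes tested. This count rests on TMM scaling: by share of the library's gene counts it was 23 members and 12% of all genes. Ctrb1, Try4, Pnlip, Dmbt1, Ptf1a, Bhlha15 and Serpini2 were then lower in the FXR-/- library of the male 1 pair. Bhlha15 was not among the 29, since after TMM it was higher in 1 pair only. The members share the libraries and rise and fall with one total, so these counts are not separate observations. After TMM the median pair difference was 0.35 in female 1, 0.19 in male 1 and 0.98 in male 2 on the log2 scale. The median fitted difference also followed single libraries: it was 0.95 without FXR+/+ male 1, 0.16 without FXR-/- male 1 and 0.069 without FXR+/+ male 2.

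**Figure D2:**
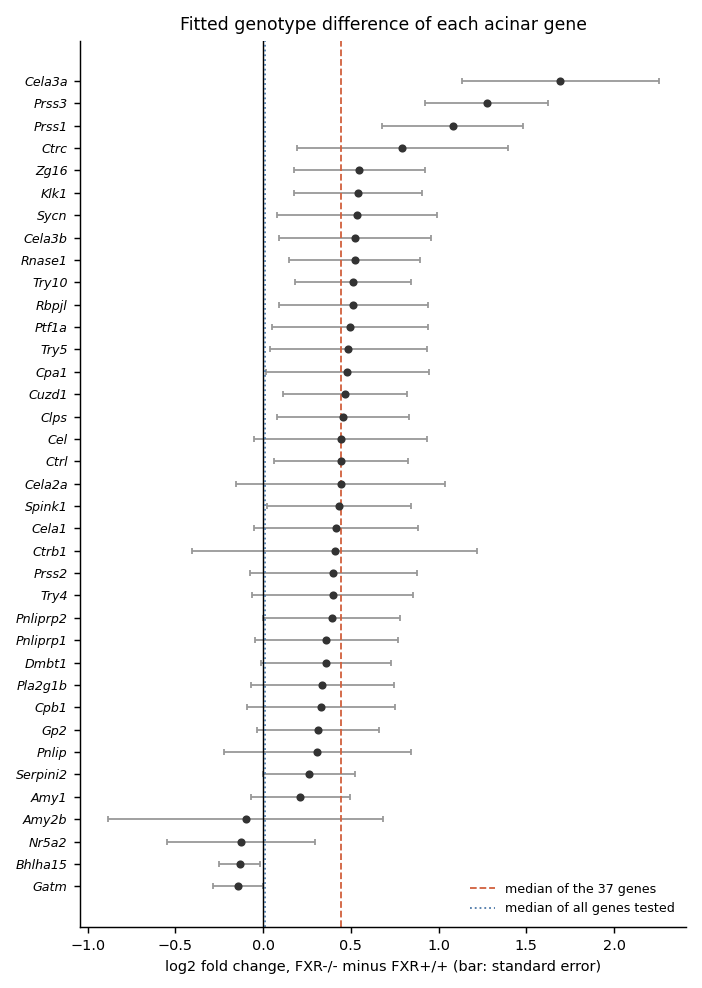
Points are fitted log2 fold changes (FXR-/- minus FXR+/+) of the 37 genes with their standard errors (3 libraries per genotype), and dashed and dotted lines are the medians of the members and of all genes tested. Most points sit near the members' median of 0.44, with Cela3a, Prss3 and Prss1 at 1.08 to 1.69 and 4 genes below 0.

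**Figure D3:**
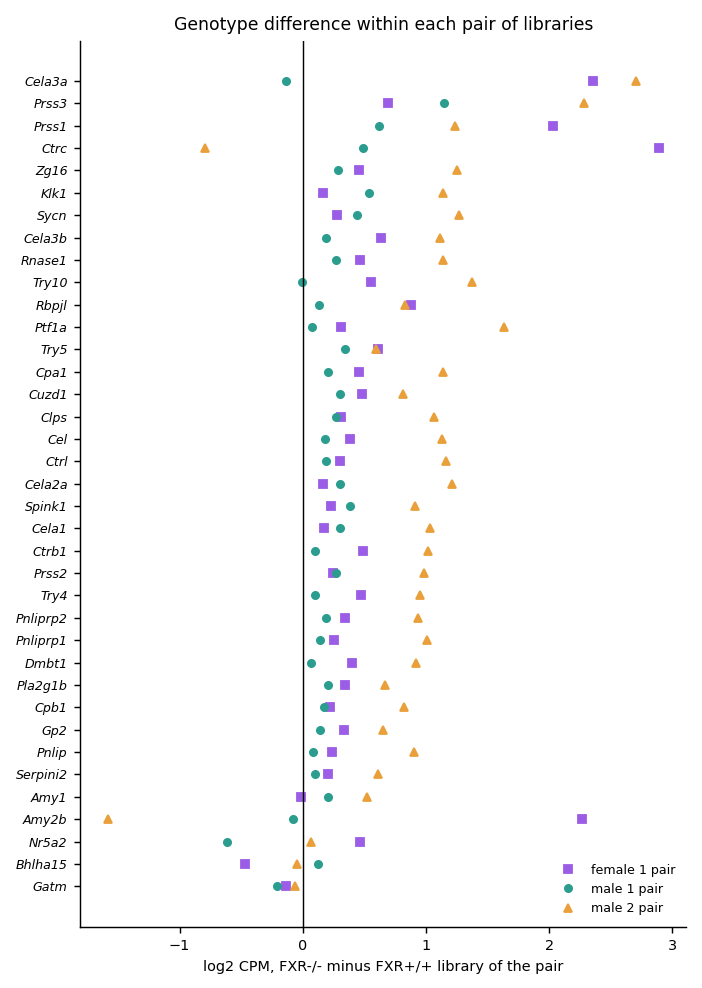
For each gene, 3 points give the log2 difference in CPM after TMM between the FXR-/- and the FXR+/+ library of the same sex and number. The male 2 pair lies farthest to the right for most genes (median 0.98) and the male 1 pair near 0 (median 0.19), whereas Amy2b and Ctrc are reversed, with the female 1 pair highest and the male 2 pair lowest.

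Leaving out both male 1 libraries, the ones with the largest acinar share, was tried after the data had been seen. This choice rests on the members' own values, so the p-values of this paragraph are descriptive. Of the members named here, Cela3a and Prss1 rest on few reads. All but Rbpjl and Cuzd1 share a large part of their transcript sequence with other genes. The remaining 4 libraries held 1 of each sex per genotype, so sex in the model was the same term as the pair. The main fit, with 0 calls, was not paired, and the paired fit of all 6 libraries called 23 genes. Leaving out male 1 thus changed the model as well as the libraries. With 4 libraries and 1 residual degree of freedom, edgeR called 235 genes (1.59%), among them 6 members, all higher in FXR-/- islets. These were the PTF1 subunit gene Rbpjl (log2 fold change 0.85, adjusted p = 0.0182), Cuzd1 (0.64, adjusted p = 0.0219), Cela3a (2.54, adjusted p = 0.0293), Prss1 (1.48, adjusted p = 0.0296), Prss3 (1.49, adjusted p = 0.0350) and Try10 (0.96, adjusted p = 0.0360). The summed share was then higher in both FXR-/- than in both FXR+/+ libraries, by 0.61 on the log2 scale, and the exact permutation p was 0.333, the smallest that 2 against 2 can give.

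Chymotrypsinogens are precursors of proteases that cut after aromatic residues. Here and for the genes that follow, levels are CPM after TMM scaling unless stated otherwise. Ctrb1 (chr8:111686519-111691010, minus strand, GENCODE vM21 on GRCm38, as for all gene positions) was the most abundant gene of the set, at 11455, 34262 and 10216 CPM in FXR+/+ and 16103, 36694 and 20705 CPM in FXR-/- islets. Both male 1 libraries stood far above the other 4. Between these 2 the order depended on scaling, since as a share of the library's gene counts Ctrb1 was 3.35% in FXR+/+ and 3.27% in FXR-/-. Its fitted log2 fold change was 0.41 with a standard error of 0.81 (adjusted p = 0.852, edgeR). Per kilobase of merged exon it was also first, with a mean of 24570 CPM per kb over the 6 libraries, and it was first in each of the 6 libraries. Ctrl, a chymotrypsin-like protease, ran from 1424 to 4003 CPM in FXR+/+ and from 2040 to 4558 CPM in FXR-/- islets, in the same order of libraries within each genotype as Ctrb1. Ctrc, chymotrypsin C, which cleaves trypsinogen and so limits trypsin, did not follow them. It was at 15.5, 42.0 and 60.9 CPM in FXR+/+ and at 115, 58.9 and 35.2 CPM in FXR-/- islets. Its highest libraries were FXR-/- female 1 and FXR+/+ male 2, which were not the ones rich in Ctrb1. The fitted difference of Ctrc was 0.79 with a standard error of 0.60 (adjusted p = 0.615, edgeR), and it was -0.13 in the male libraries alone.

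Counting limits what can be said of Ctrc. The GENCODE vM21 model of Ctrc (chr4:141814962-141846359, minus strand) spans the whole of Cela2a (chr4:141814962-141826160, minus strand), and 17.7% of its 50-base words also occur in Cela2a transcripts. In the exon table Ctrc had counts of 49, 67 and 89 for FXR+/+ against 75, 36 and 104 for FXR-/-, an order that differs from its gene counts of 363, 847 and 1928 and of 2832, 1120 and 836.

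Trypsinogens are the zymogens whose activation starts the digestive cascade. Prss2, the main anionic trypsinogen, was at 3078, 7854 and 2564 CPM in FXR+/+ and 3647, 9450 and 5057 CPM in FXR-/- islets, so it rose and fell with Ctrb1. Its fitted log2 fold change was 0.40 ± 0.48 (SE, adjusted p = 0.752, edgeR). Try4 ranged from 2554 to 8744 CPM and Try5 from 1893 to 9074 CPM over all libraries, with the extremes in FXR+/+ female 1 and FXR-/- male 1. Try10 was low, from 9.94 to 28.7 CPM. Prss3 was at 34.8, 248 and 93.7 CPM in FXR+/+ and at 56.1, 548 and 457 CPM in FXR-/- islets. The 2 female libraries were the lowest of all 6, and each FXR-/- library exceeded its FXR+/+ counterpart. Prss3 had a fitted log2 fold change of 1.27 ± 0.35 (SE, adjusted p = 0.388, edgeR). Prss1 behaved alike at a far lower level, where FXR+/+ libraries held 10, 142 and 91 counts against 43, 206 and 161 in FXR-/- (fitted log2 fold change 1.08 ± 0.40, SE, adjusted p = 0.457, edgeR).

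The trypsinogen genes lie together on chromosome 6, from Try4 (chr6:41302269-41305532) to Prss2 (chr6:41521787-41525079), and are near copies of each other. Of the 50-base words in its transcripts, Prss3 shared 66.1% with other genes, chiefly Gm10334, Try4 65.6%, chiefly with Try5, and Prss1 54.9%, chiefly with Gm5771. Try5 shared 47.6% and Try10 40.8%, whereas Prss2 shared 7.83%. How reads that fit several copies were assigned is not given in the sources used here, so the levels of these genes apart from Prss2 are uncertain. Outside the set, 2 near copies singled out after their values were seen had the same order of sexes. Gm5771 counts were 154, 2064 and 1328 for FXR+/+ against 399, 4681 and 6900 for FXR-/-, and Gm10334 had 9, 85 and 65 and 22, 144 and 94 counts.

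Male against female libraries were compared with genotype in the model, a reading also chosen after the data had been seen. The edgeR test called 8 genes (0.0547%) and no member, whose lowest adjusted p was 0.244 (Prss3). At an unadjusted p under 0.05 there were 6 members, Bhlha15, Cuzd1, Prss1, Prss3, Serpini2 and Try5, beside 7.48% of all genes. The set as a whole was higher in males, with 35 of the 37 estimates above 0. Their median was 0.83 on the log2 scale, beside 0.0030 over all genes tested. Prss1 was higher in males by 2.75 ± 0.49 and Prss3 by 2.71 ± 0.42 on the log2 scale (SE, 4 male and 2 female libraries, adjusted p = 0.329 and 0.244, edgeR). Gm5771 was higher by 3.75 ± 0.39 (SE) and was called (adjusted p = 0.0412, edgeR). Each genotype had a single female library.

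Elastases cut after small aliphatic residues. Cela2a was the second most abundant member by CPM, at 6666, 16648 and 5314 CPM in FXR+/+ and 7456, 20537 and 12327 CPM in FXR-/- islets. Cela1 followed at 3469 to 9356 CPM and 4514 to 11507 CPM, and Cela3b at 1709 to 5507 CPM and 2652 to 6266 CPM. All 3 were highest in the male 1 libraries and had fitted log2 fold changes from 0.42 to 0.53 with standard errors from 0.43 to 0.60. Cela3a was barely present, where counts of 5, 14 and 9 in FXR+/+ stood against 27, 12 and 44 in FXR-/-. Its estimate of 1.69 ± 0.56 (SE) was the largest of the set and rested on those few counts (adjusted p = 0.432, edgeR). Cela3a shared 34.2% of its 50-base words with Cela3b, which outnumbered it by more than 1000 counts to 1 in every library.

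Carboxypeptidases trim amino acids from the ends of peptides, CPA1 aromatic and aliphatic ones and CPB1 basic ones. Cpa1 was at 2969, 7887 and 2525 CPM in FXR+/+ and 4067, 9095 and 5568 CPM in FXR-/- islets. Cpb1 had nearly the same levels, 3201, 7342 and 2842 CPM and 3722, 8287 and 5033 CPM. Both were highest in the male 1 libraries, and their fitted log2 fold changes were 0.48 and 0.33 (SE 0.46 and 0.42, adjusted p = 0.691 and 0.770, edgeR).

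The lipid digestion genes were all higher in the FXR-/- estimate and none was called. Pnlip (chr19:58652498-58681788, plus strand), pancreatic triglyceride lipase, was at 5762, 15003 and 5337 CPM in FXR+/+ and 6794, 15876 and 9950 CPM in FXR-/- islets. Cel, the bile salt-dependent lipase, was at 3494, 10019 and 3157 CPM and at 4556, 11381 and 6900 CPM. Clps, which encodes the colipase that anchors PNLIP to fat droplets, ranged from 919 to 3081 CPM over all libraries. Pnliprp1 (chr19:58728887-58744169) and Pnliprp2 (chr19:58759719-58777534), relatives of the lipase that lie near Pnlip, ranged from 1419 to 4629 CPM and from 278 to 973 CPM, and Pla2g1b, the pancreatic phospholipase A2, from 136 to 483 CPM. The 6 fitted log2 fold changes had a median of 0.38, and their lowest adjusted p was 0.641. Rnase1, the pancreatic ribonuclease, ranged from 1017 to 2858 CPM in FXR+/+ and from 1550 to 3437 CPM in FXR-/- islets (log2 fold change 0.52 ± 0.37, SE, adjusted p = 0.599, edgeR).

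Amylases cleave starch, and Amy2b did not follow the other enzymes. Amy2b (chr3:113147656-113156727, minus strand), a pancreatic amylase, was at 17.4, 29.6 and 112 CPM in FXR+/+ and 83.7, 28.0 and 37.3 CPM in FXR-/- islets. FXR+/+ male 2 and FXR-/- female 1, which were high for Ctrc, were high here as well, while the male 1 libraries were low. Its estimate was -0.10 with a standard error of 0.79 (adjusted p = 0.967, edgeR), and its sign changed to 0.15 with the pair in the model. Amy1, the salivary and liver form, ranged only from 6.60 to 15.1 CPM. Amy2b shared 40.2% of its 50-base words with other genes, chiefly Amy2a5, and Amy1 33.3%, chiefly with the overlapping Rnpc3. Amy2a5, named after its values were seen, was more abundant, at 280, 573 and 232 CPM in FXR+/+ and 194, 446 and 383 CPM in FXR-/- islets.

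The protease inhibitors and the granule and other secreted proteins tracked the enzymes, with r of 0.958 to 0.992 against the share of the other members over the 6 libraries. Spink1, the trypsin inhibitor of the granules, was at 89.4, 224 and 73.7 CPM in FXR+/+ and 105, 292 and 138 CPM in FXR-/- islets. Serpini2, a pancreatic serpin, varied less, from 43.8 to 96.3 CPM and from 50.6 to 103 CPM. Among the granule and other secreted proteins, Zg16, a granule lectin, had the largest estimate (0.55 ± 0.37, SE), with 760, 1756 and 592 CPM in FXR+/+ and 1040, 2137 and 1408 CPM in FXR-/- islets. Sycn (syncollin), which binds the granule membrane, ranged from 329 to 1617 CPM, Gp2, the major granule membrane glycoprotein, from 415 to 1173 CPM, and Klk1, tissue kallikrein, from 281 to 1073 CPM. Dmbt1, a mucin-like granule protein, ranged from 830 to 2484 CPM and Cuzd1, a zymogen granule protein, from 66.4 to 261 CPM. All 6 estimates were above 0 with a median of 0.50, and the lowest adjusted p was 0.581. With the pair in the model, Cuzd1 had a smaller standard error (log2 fold change 0.53 ± 0.11, SE, adjusted p = 0.0867, edgeR).

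Of the transcription factors, Ptf1a, Rbpjl and Nr5a2 were highest in the male 1 libraries, and Bhlha15 did not follow the enzymes. Ptf1a was at 3.24, 7.29 and 1.83 CPM in FXR+/+ and 4.01, 7.68 and 5.68 CPM in FXR-/- islets, and Rbpjl at 7.93, 30.2 and 9.56 CPM and 14.6, 33.2 and 17.04 CPM. Both were highest in the male 1 libraries, as the enzymes were. Their fitted log2 fold changes were 0.49 ± 0.44 and 0.51 ± 0.42 (SE, adjusted p = 0.669 and 0.640, edgeR). Bhlha15 stayed at 67.9, 77.2 and 86.5 CPM in FXR+/+ and 49.1, 83.9 and 83.9 CPM in FXR-/- islets. It thus spanned 1.76-fold while Ctrb1 spanned 3.59-fold, and FXR-/- female 1 was its lowest library (log2 fold change -0.13 ± 0.12, SE, adjusted p = 0.665, edgeR). Nr5a2 was sparse, at 44, 138 and 79 counts for FXR+/+ against 64, 85 and 62 for FXR-/- (log2 fold change -0.12 ± 0.42, SE, adjusted p = 0.923, edgeR). In CPM it was at 1.88, 6.84 and 2.49 in FXR+/+ and at 2.59, 4.47 and 2.61 in FXR-/- islets. Gatm, which makes the creatine precursor and is not limited to acinar cells, ranged from 50.8 to 76.1 CPM and from 46.3 to 65.7 CPM (log2 fold change -0.14 ± 0.14, SE, adjusted p = 0.701, edgeR). Ptf1a shares 35.4% of its 50-base words with the antisense gene Ptf1aos, and whether strand was used in counting is not given in the sources used here.

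To separate the amount of acinar RNA from its make-up, each member was divided by the summed counts of the other 36. On this log2 ratio 22 of the 37 members stayed within 0.3 of their own mean in every library, and the median span between highest and lowest library was 1.28-fold, against the 2.90-fold span of the summed share. Pnliprp2 was the steadiest, at 0.52% to 0.56% of the members' counts in each library, a 1.08-fold span. Cel made up 6.17%, 6.58% and 6.20% in FXR+/+ and 6.29%, 6.54% and 6.70% in FXR-/- islets. Ctrb1 made up 20.05% to 22.5% everywhere.

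**Figure D4:**
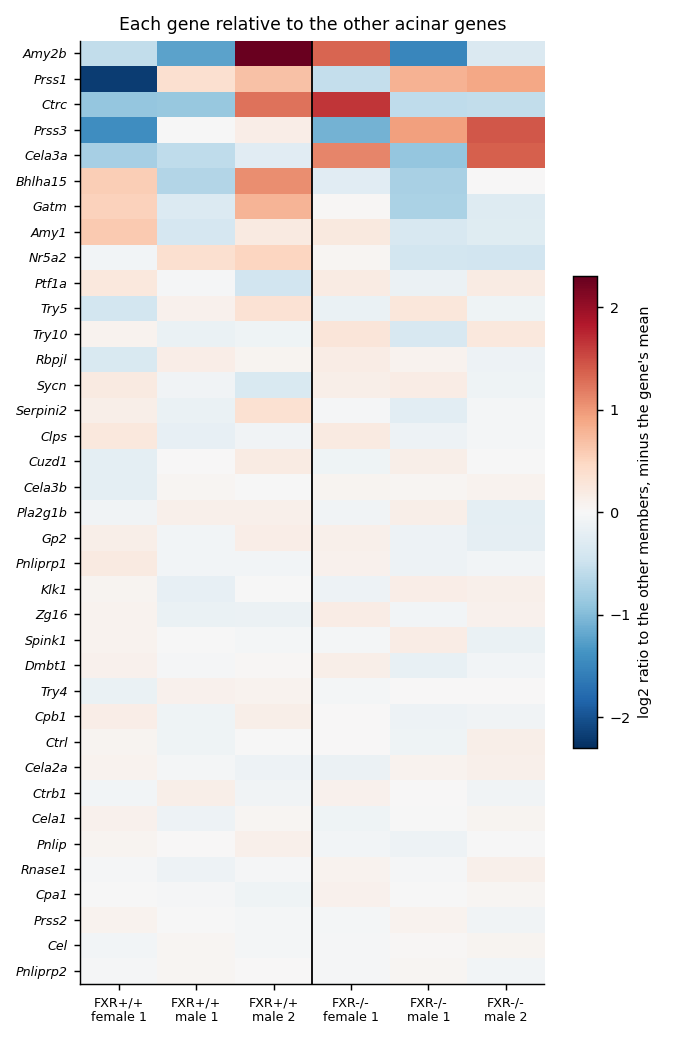
Colours give the log2 ratio of each gene to the summed counts of the other members, minus the gene's own mean over the 6 libraries, with genes ordered by their largest departure. The lower 22 rows stay within 0.3, and Amy2b, Prss1, Ctrc, Prss3 and Cela3a at the top depart by 1.37 to 2.27 in single libraries.

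On this scale 6 genes departed by more than 1 from their mean in at least one library. Amy2b spanned 13.6-fold and was highest in FXR+/+ male 2, Prss1 spanned 8.35-fold and Prss3 7.25-fold, both lowest in FXR+/+ female 1, Ctrc spanned 5.79-fold and Cela3a 4.82-fold. Bhlha15 spanned 3.52-fold and Gatm 2.83-fold, and both were lowest relative to the set in FXR-/- male 1 and highest in FXR+/+ male 2, the libraries with the largest and the smallest acinar share. Their own levels differed far less.

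Pnlip alone did not overlap between the genotypes on this ratio. It made up 10.2%, 9.85% and 10.5% of the members' counts in FXR+/+ and 9.37%, 9.12% and 9.66% in FXR-/- islets. The difference was -0.13 on the log2 scale, with an exact permutation p of 0.1, the smallest possible. This was 1 of 37 such comparisons. Of the 14619 genes tested, 113 (0.773%) did not overlap on the ratio to the members. For genes outside the set that ratio carries the swing of the summed share, which cancels for members that track it. The 0.773% is therefore not a like background for Pnlip. When both male 1 libraries were left out, 16 members did not overlap, and when FXR-/- male 1 alone was left out 10 did not. Groups of fewer libraries overlap less often, and the share of all genes was not computed for these sets. The rise in number can therefore not be read as a difference in make-up.

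**Figure D5:**
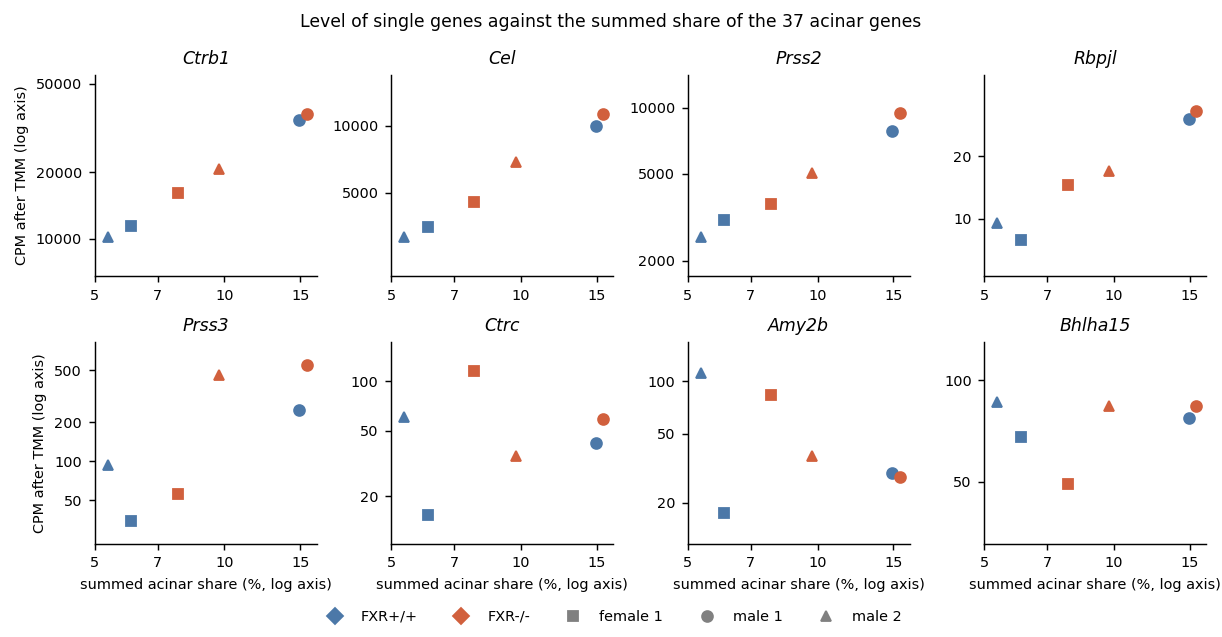
Each panel plots one gene's CPM after TMM against the summed share of the 37 genes, both on log axes, with 1 point per library. Ctrb1, Cel, Prss2 and Rbpjl rise with the share, Prss3 is lowest in the female libraries, and Ctrc, Amy2b and Bhlha15 show no such rise.

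Across the 6 libraries, log2 CPM (of all gene counts, without TMM) of a member correlated with the log2 share of the other members at r = 0.9 or more for 28 members (median r 0.98) and less for 9. The lowest were Amy2b (r = -0.49), Bhlha15 (-0.074), Ctrc (0.052), Cela3a (0.43) and Gatm (0.52). These coefficients are descriptive, rest on 6 libraries that all genes share, and are given with no test. Among 9176 other genes with a mean of at least 10 CPM, those most like the summed share included Pdia2 (a pancreatic disulfide isomerase), Tmed6, 2210010C04Rik, Ggh, Tff2, Slc39a5, Reg1, Aldh7a1 and Cckar (a cholecystokinin receptor), with r from 0.983 to 0.997. Pdia2 stood at 138, 332 and 130 CPM of all counts in FXR+/+ and 175, 342 and 207 CPM in FXR-/- islets. Ggh and Aldh7a1 followed the order with a much smaller span, 1.35-fold and 1.40-fold. The 3 least alike were Copb1, Mrpl19 and Cetn2 (r from -0.996 to -0.995), each spanning 1.31-fold to 1.40-fold. The shares of a library sum to a whole, so the summed share of all genes outside the set falls as that of the set rises. Of these genes 78 had an r of 0.9 or more, and the median r of the other genes was -0.66.

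Per kilobase of merged exon, after TMM and taken as means over the 6 libraries, Ctrb1 was followed by Cela2a (6669 CPM per kb), Prss2 (6472), Try4 (6426), Try5 (5181), Pnlip (4459), Cel (3130), Clps (3094), Cpa1 (3058) and Cela1 (2888). Neighbours after Ctrb1 differed by less than their spread between libraries. For Cela2a it ran from 3084 to 11919 CPM per kb and for Prss2 from 3146 to 11596 CPM per kb. Most members rise and fall together, so that spread does not decide the order of 2 genes. Pnlip was above Cel in each of the 6 libraries. Cela2a was above Prss2 in FXR+/+ female 1 and below it in FXR+/+ male 2. At the other end were Nr5a2 (0.59), Cela3a (0.83), Amy1 (3.07), Rbpjl (3.27) and Ptf1a (3.29). Bhlha15 was the highest of the transcription factors at 21.4 CPM per kb, and its range of 14.0 to 24.8 did not overlap that of the other 3 factors, which reached at most 5.79.

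The genotype difference was compared between the sexes by an interaction term. The edgeR test called 0 of the 14619 genes (0%), with a lowest adjusted p of 1.00 after rounding. At an unadjusted p under 0.05 there were 3 members, Amy2b, Bhlha15 and Ctrc, beside 217 genes (1.48%). For Ctrc the difference between the sexes was -3.02 on the log2 scale (male minus female effect), for Amy2b -3.38 and for Bhlha15 0.51, each resting on 1 female library per genotype.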

How the data were processed

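Islet RNA of 3 FXR+/+ and 3 FXR-/- mouse libraries was sequenced. The authors aligned the reads, and the labels' processing notes name HISAT; its version, the counting program, the annotation and the strand setting are not given in the sources used here. The deposited files used here hold raw read counts per gene and per exon, 1 column per library. The authors' tables comparing the genotypes (means, fold changes, p-values and q-values) were not used. Rows with a gene identifier but no symbol (31, with 0.00494% of counts) were kept. Groups were taken from the labels.

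Gene counts were tested with edgeR 4.0.16 (quasi-likelihood, R 4.3.3; genes kept by filterByExpr at a minimum count of 10 and a total of 15, TMM scaling, sex and genotype in the model, 3 residual degrees of freedom) with Benjamini-Hochberg adjustment over all genes and a threshold of 0.05. Alternatives used DESeq2 1.42.0 and other models, scalings, filters and library sets. The test was also run, after the fits, on counts simulated with a common dispersion and no swings shared between genes. Single values were compared by exact permutation of libraries. The log2 ratio of a member to the others used a pseudocount of 0.5 counts. Summed-share intervals are 95% Wilson intervals and cover counting error only. Over non-member genes, libraries of the same sex and number deviated together, with correlations of 0.371, 0.434 and 0.354 (other combinations at most 0.0802). The numbers were therefore taken to pair the samples, which the labels do not state. Deviations were taken from the mean of each genotype, so these correlations depend on each other. All values by pair rest on this choice. No 2 libraries differed by less than sampling noise. Transcript words of 50 bases, exon lengths and gene positions came from GENCODE vM21 (GRCm38), which holds 86.7% of the exons in the exon table. Promoters were matched by symbol to RefSeq (GRCm38.p6).

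The members, lists and motifs were chosen with earlier results of these data known. Genes named beyond the members were Nr1h4, Ins1, Ins2, the 10 genes with the highest and the 3 with the lowest correlation with the members' share, and those said to be chosen after their values were seen. One gene among the 10 is not reported here.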

Additional observations from a re-analysis of the deposited data

Results flagged for a closer look

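In 2 amylase genes the female pair of libraries moved one way between the genotypes and both male pairs the other way, as did 23.8% of all genes tested. Amy2b was higher in the FXR-/- library by 2.27 on the log2 scale (CPM after TMM) in the female pair, and the male differences were -0.078 and -1.58. The interaction term of the edgeR fit for Amy2b was -3.38 (unadjusted p = 0.0126, adjusted p = 1.00). Amy1 differed by -0.017 in the female pair and by 0.21 and 0.52 in the male pairs (interaction 0.34, adjusted p = 1.00, edgeR). Each rests on 1 female pair, and Amy2b shares 40.2% of its 50-base words with other genes.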

How the results depend on the processing

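No member was called under any alternative chosen at the outset (other models, scalings, filters, DESeq2, exon counts, males alone, each library left out), and 6 were called only when both male 1 libraries were left out, an alternative added after the data had been seen. In that alternative sex and pair were the same term of the model. The number of genes called by genotype, 0, became 23 with the pair as a replicate block, 177 with DESeq2, 4 with exon counts and 235 without the male 1 pair. The number of members whose ratio to the rest did not overlap between the genotypes was 1. It became 2 with Ctrb1 left out of the reference, 4 with exon counts, 16 without the male 1 pair and 1 to 10 with a library left out. On CPM after TMM, which is a level and not a ratio, 0 members did not overlap. Groups of fewer libraries overlap less often, and the share of all genes was not computed for the reduced sets. The summed share difference kept its direction under all alternatives. The replicate block changed no call of a member.

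The sign of some estimates changed. Amy2b became 0.15 with the replicate block, 0.30 with exon counts and 0.32 without the male 1 pair, and Nr5a2 became 0.25 without that pair. In males alone Ctrc became -0.13 and Bhlha15 0.035. With exon counts, where 32 of the 37 members were tested, Cela2a became -0.0095 and Pnlip -0.031. Exon counts hold only 0.072% of the gene counts of Cela2a and 0.053% of those of Pnlip. With a library left out, Ctrc ranged from -0.13 to 1.41, Amy1 from -0.066 to 0.49, Amy2b from -1.12 to 1.01, Pnlip from -0.024 to 0.81, Pla2g1b from -0.037 to 0.89, Bhlha15 from -0.23 to 0.036, Nr5a2 from -0.48 to 0.48, Gatm from -0.27 to 0.0032 and Serpini2 from -0.0014 to 0.60. The cause was not tested.

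Exon counts hold 0.02% of the gene counts of Clps and 97.3% of those of Bhlha15, and why the shares differ was not tested. Scaling by library size alone moved the median of all genes from 0.0084 to -0.087 and that of the members from 0.44 to 0.36, with 33 members above 0 in both. Prss1, Cela3a and Nr5a2 rest on few reads.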
